A study of Mus musculus with 16 samples.

Results

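The genes described are 7 genes of antigen presentation by major histocompatibility complex (MHC) class II: Cd74, H2-Aa, H2-Ab1, H2-Eb1, H2-DMa, H2-DMb1 and their transcriptional coactivator Ciita. They were chosen by symbol among the 32286 genes of each count matrix, and all 7 were found in all 16 libraries. RNA of single cells was captured by the 3′ assay of 10x Genomics from female BALB/c mice that carried pieces of the Trp53-null mammary tumor 2208L in a mammary fat pad, or no tumor. IACS-70654 is an oral inhibitor of the bromodomain of the acetyltransferases CBP and P300. The 4 tumor libraries held sorted live cells of tumors from mice given vehicle, IACS-70654, the checkpoint antibody anti-PD-1 or the combination, with 1 library each. The marrow libraries held CD45+ Ter119- cells or Lin- c-Kit+ CD45+ cells. Each of these sorts had 2 libraries of untreated mice without a tumor (ctrl), 2 of tumor-bearing mice given vehicle and 2 of tumor-bearing mice given IACS-70654. Cells of 3 mice were pooled per sample. Whether the 2 libraries of a marrow group are parts of 1 pool is not stated, so p values speak for these libraries only. The test shares its estimate of spread over genes, so a gene's SE and p value need not reflect the gap between its libraries. All mice carry the H-2d alleles of BALB/c, whereas the reference genome is that of C57BL/6. How far this lowers the count of a class II gene was not tested, and it is shared by every library.

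Class II molecules present peptides from endocytosed protein to CD4+ T cells. H2-Aa and H2-Ab1 encode the α and β chains of I-A, and H2-Eb1 encodes the β chain of I-E. Cd74 encodes the invariant chain, which fills the groove in the endoplasmic reticulum and leads the molecule to the endosome, and H2-DMa and H2-DMb1 encode the chains of H2-DM, which exchanges the last fragment of the invariant chain for peptide. CIITA binds no DNA itself. It is recruited to a promoter module of S, X and Y boxes, where it in turn brings in acetyltransferases including CBP and P300. Dendritic cells, B cells and activated macrophages are the classic class II-positive cells, whereas neutrophils and resting mouse T cells have little.

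Promoter windows of RefSeq on GRCm38.p6, from 250 bases before to 50 after the start, were found for H2-Aa, H2-Eb1, H2-DMa and H2-DMb1, and no window was used for Cd74, H2-Ab1 and Ciita. The start of the X box (GNAAC, with N any base) and the Y box core (TGATTGG) were searched on both strands. GNAAC was present in 84.8% of all 32851 windows and TGATTGG in 7.82%. GNAAC followed by TGATTGG on the same strand, with 28 to 33 bases from the first base of one to the first base of the other, was present in 63 windows, or 0.192%. These stretches of the H2-Aa promoter (chr17:34287855-34287916, minus strand) and the H2-Eb1 promoter (chr17:34305764-34305824, plus strand) are shown because they hold the pair, with both motifs in capitals and all the rest in lower case.
H2-Aa: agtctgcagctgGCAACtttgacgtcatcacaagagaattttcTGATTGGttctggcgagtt
H2-Eb1: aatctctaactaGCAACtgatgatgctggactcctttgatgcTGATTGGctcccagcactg
Counted from first base to first base, the motifs stood 31 bases apart in H2-Aa and 30 bases apart in H2-Eb1, and TGATTGG began 50 and 61 bases before the gene start. H2-DMb1 held the pair at 31 bases, counted in the same way. Neither of the 2 windows of H2-DMa held TGATTGG, which says only that these letters are not in these windows. Of the other class II genes, H2-Eb2, H2-Oa and H2-Ob held the pair and H2-DMb2 did not.

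By the GENCODE annotation of GRCm38, Ciita (ENSMUSG00000022504) lies at chr16:10480059-10528418 and Cd74 (ENSMUSG00000024610) at chr18:60803848-60812652, both on the plus strand. The other genes lie together on chromosome 17, in the order H2-DMa (ENSMUSG00000037649, chr17:34119541-34139101, plus), H2-DMb1 (ENSMUSG00000079547, chr17:34153072-34160230, plus), H2-Ab1 (ENSMUSG00000073421, chr17:34257689-34269419, plus), H2-Aa (ENSMUSG00000036594, chr17:34282744-34287823, minus) and H2-Eb1 (ENSMUSG00000060586, chr17:34305867-34316674, plus). H2-DMb1 has a near-identical neighbour, H2-DMb2, and reads of either copy may have been lost or assigned to the other. The antisense gene Gm20513 (chr17:34293073-34308070, minus) overlaps the start of H2-Eb1 on the opposite strand, and whether this affects their counts was not tested.

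The files hold 77636 cell barcodes, of which 73176 passed the filters, and 0 barcodes were shared between libraries of a sort. Cells carried CellPlex tags that mark their sample, so the libraries of a sort may be parts of a single capture. Whether they are was not tested, and p values would then leave out differences between captures. Medians of unique molecular identifiers (UMIs) per cell ran from 4113 to 6596 in CD45+ marrow, from 6712 to 9512 in c-Kit+ marrow and from 4724 to 6332 in tumors, and libraries held from 15590289 to 68415534 UMIs. Clusters were named from marker lists that hold none of the 7 genes, and none of the 7 was used for clustering. Names were given by these same lists, so the markers detected describe the clusters and do not test the names. In the marrow clusters, 8 of 8 monocyte markers, 8 of 8 markers of plasmacytoid dendritic cells (pDC) and 6 of 6 of mature B cells were detected. The counts were 7 of 8 in hematopoietic stem cells (HSC), 8 of 8 in monocyte progenitors (MP) and 9 of 9 in tumor macrophages. Fewer were detected in, among others, cDC of CD45+ marrow (8 of 10) and c-Kit+ marrow (4 of 5) and tumor neutrophils (8 of 11). In c-Kit+ marrow this held for megakaryocytes (5 of 6) and a cluster of basophils or mast cells (5 of 7). It also held for some clusters of T or NK cells (5 of 10 in c-Kit+ marrow, 7 of 10 in 1 cluster of CD45+ marrow and in tumors). These names were made here and may differ from those the study used. From 2.8% to 20.7% of the cells of a library stayed unnamed. A level is given in CPM, the UMIs of the gene divided by all UMIs of the cells of that class in that library, on the usual CPM scale. Levels of different genes are not compared with each other.

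Across CD45+ marrow, class II RNA marked the cells known for it. Cd74 had its highest level in mature B cells, with a median of 5790 CPM (5250 to 6738 over 4 libraries with 20 or more such cells), followed by conventional dendritic cells (cDC) at 1364 to 3251 CPM over 3 libraries. The next classes were B cells outside the mature class (918 to 1179 CPM, 4 libraries), pDC (113 to 1107 CPM, 6 libraries) and monocytes (53.2 to 889 CPM, 6 libraries). The range of pDC overlaps with those of both others, whereas B cells and monocytes do not overlap. These B cells were named by the general B cell list, which shares markers with the mature list. Their name therefore does not mean that mature markers are absent. Neutrophils had 5.56 to 8.15 CPM and T or NK cells 0 to 7.49 CPM, which was taken as the background. The ranges of Cd74 in pDC and monocytes span treatment groups that differ, as described next. Ciita followed the same order at the top, at 190 to 271 CPM in mature B cells, 56.3 to 71.6 CPM in cDC and 0.109 to 0.428 CPM in neutrophils. H2-DMa stood apart from the other genes in its pattern over classes. Its level in cDC was 423 to 470 CPM, but mature B cells (241 to 312 CPM), monocytes (194 to 282 CPM), pDC (229 to 285 CPM) and cycling monocytes (199 to 236 CPM) overlapped with the class next to them in this order, and neutrophils had 4.48 to 7.28 CPM.

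**Figure D1:**
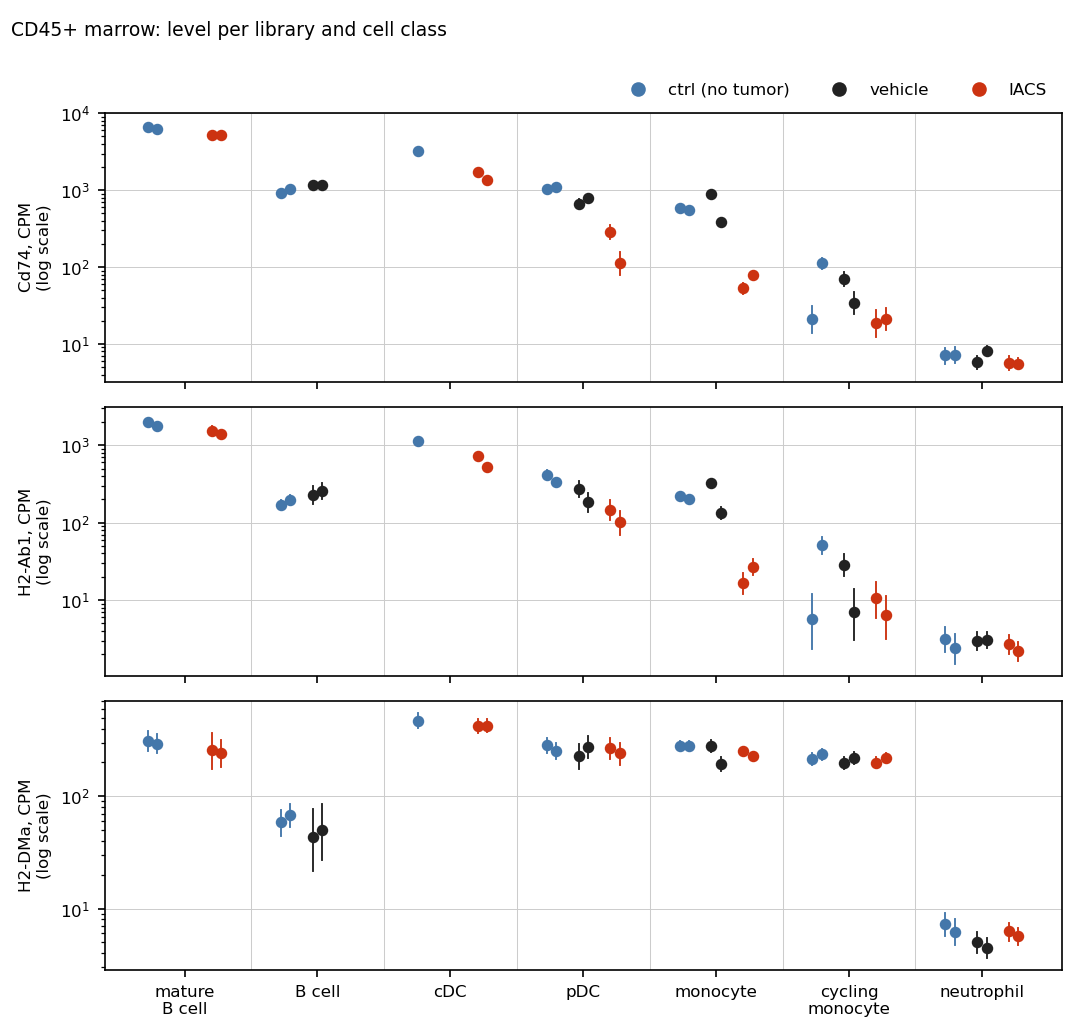
Levels of Cd74, H2-Ab1 and H2-DMa (CPM, log axes) in each CD45+ marrow library with 20 or more cells of a class; points are libraries, colored by group, and bars are exact 95% Poisson intervals. In monocytes and pDC the IACS libraries sit below both other groups for Cd74 and H2-Ab1, while the H2-DMa points of all groups lie between 194 and 285 CPM.

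In marrow monocytes, 6 of the 7 genes fell with IACS-70654, and H2-DMa was the exception. Monocytes are class II-low cells that gain class II as they differentiate. Cd74 had 580 and 560 CPM in the ctrl libraries, 889 and 390 CPM in the vehicle libraries, and 53.2 and 78.8 CPM in the IACS libraries (180 and 200, 127 and 140, and 281 and 313 cells). Both IACS libraries lay below all 4 others, and the vehicle libraries lay on either side of the ctrl libraries. The log2 change against vehicle was -3.27 (SE 0.17, n = 2 against 2, adjusted p = 2.3e-22, Benjamini-Hochberg over the 8922 genes of the quasi-likelihood test of edgeR).

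The chains of the class II molecules themselves followed Cd74 in monocytes. H2-Aa had 320 and 241 CPM in ctrl, 450 and 181 CPM in vehicle and 13.7 and 39.0 CPM in IACS libraries, a log2 change of -3.55 (SE 0.23). H2-Ab1 had 222 and 203 CPM, 326 and 134 CPM, and 16.7 and 27.1 CPM in the same order, a change of -3.37 (SE 0.21). H2-Eb1 had 145 and 126 CPM, 241 and 120 CPM, and 4.56 and 14.1 CPM, a change of -4.24 (SE 0.24). In each of these genes the IACS libraries did not overlap with either other group.

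Ciita, which encodes the coactivator of class II genes, was counted more sparsely but moved the same way as Cd74 in monocytes. It had 26.7 and 18.5 CPM in ctrl, 37.4 and 21.6 CPM in vehicle, and 4.56 and 3.87 CPM in IACS libraries, a log2 change of -2.79 (SE 0.35, edgeR adjusted p = 9.6e-09). H2-DMb1 had 23.5 and 19.8 CPM, 28.5 and 15.99 CPM, and 6.85 and 3.17 CPM, a change of -2.16 (SE 0.38). The IACS libraries of both genes lay below all others. H2-DMa, which encodes the partner chain of H2-DMb1, had 282 and 280 CPM in ctrl, 280 and 194 CPM in vehicle, and 254 and 229 CPM in IACS libraries, so that the groups overlapped (log2 change 0.02, SE 0.10, adjusted p = 0.95).

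Of the 7 genes tested in monocytes, 6 were called lower, where a call needs a log2 change beyond 0.5 besides an adjusted p below 0.01, and 6.1% of all genes were called in either direction. The median change was -3.27 for the 7 genes and 0.00 for all genes. DESeq2 called the same number, and without vehicle replicate 1, the vehicle library with the higher levels, H2-DMb1 was no longer called (-1.70, adjusted p = 0.011).

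**Figure D2:**
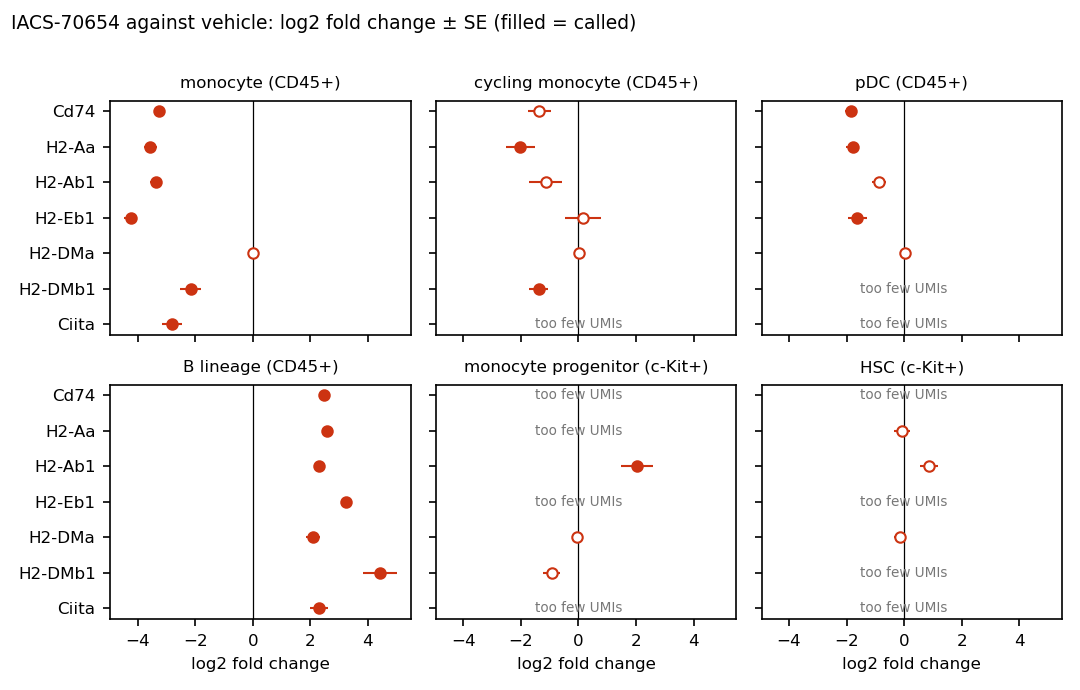
Log2 fold change of IACS against vehicle (points) with its standard error (bars) for each gene in 4 CD45+ and 2 c-Kit+ marrow classes; filled points passed the test. The 6 other genes lie between -4.24 and -2.16 in monocytes while H2-DMa lies at 0.02, and all 7 lie above 2 in the B lineage.

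The monocytes of the groups came from different clusters. The cluster led by Ms4a6c, Ms4a6d and Ccr2 held 505 of 594 IACS monocytes, against 16 of 267 vehicle and 17 of 380 ctrl monocytes. A cluster led by Fn1 and S100a4 held 14 IACS, 184 vehicle and 245 ctrl monocytes. The third cluster, led by Apoe and Ctss, held 75 IACS, 67 vehicle and 118 ctrl monocytes, and it carried most of the monocyte Cd74 RNA in the ctrl and vehicle libraries. Within this Apoe-led cluster, Cd74 had 2105 and 1980 CPM in ctrl, 2701 and 2396 CPM in vehicle, and 231 and 209 CPM in IACS libraries. Within the same cluster H2-Ab1 had 821 and 735 CPM in ctrl, 998 and 826 CPM in vehicle, and 68.2 and 56.1 CPM in IACS libraries. Within this 1 cluster the IACS libraries were again below all others. In the Fn1-led cluster, Cd74 had 9.51 to 20.7 CPM in the ctrl and vehicle libraries, and the IACS libraries held 7 such cells each. In the Ms4a6c-led cluster, Cd74 had 33.8 and 63.65 CPM in the IACS libraries, and the other groups had at most 12 cells per library there.

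**Figure D3:**
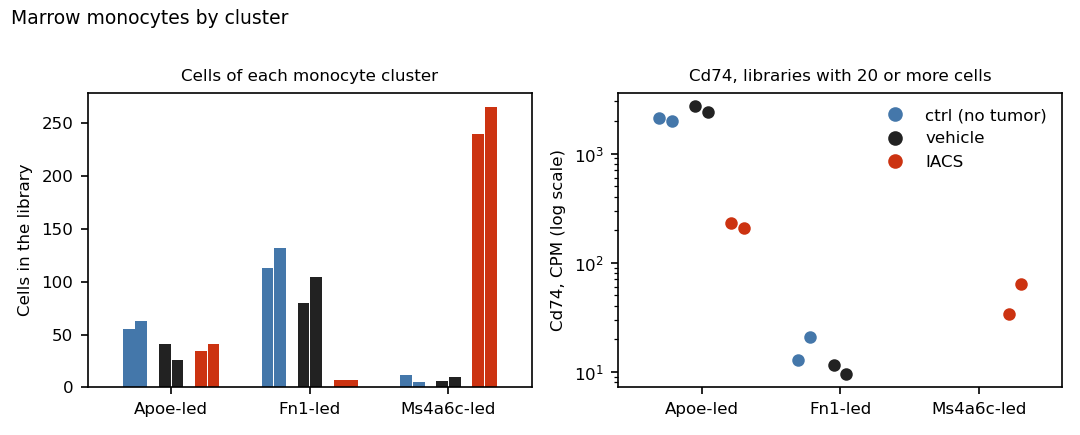
Left, the number of monocytes of each cluster in each CD45+ library (bars start at 0); right, Cd74 in CPM (log axis) in the libraries with 20 or more cells of the cluster. IACS monocytes are mostly in the Ms4a6c-led cluster, and within the Apoe-led cluster the IACS libraries are at 231 and 209 CPM against 1980 or more in the other libraries.

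Other markers moved with the class II genes in monocytes. The summed level of 9 macrophage markers was 2549 to 2964 CPM in vehicle, 2063 to 2349 CPM in ctrl and 1173 to 1226 CPM in IACS libraries, and that of the 8 monocyte markers was 10408 to 10625, 10413 to 10470 and 7064 to 7200 CPM. The sum of 10 cDC markers went the other way, from 53.6 to 78.7 CPM in vehicle to 125 to 132 CPM in IACS libraries, and that of 8 B cell markers was 18.8 to 27.4 CPM in all libraries. The part of these shifts in the class II result was not tested. After each cell was thinned to 1000 UMIs, Cd74 was found in 15.6% and 12% of ctrl monocytes, 11.8% and 5.88% of vehicle monocytes, and 4.29% and 2.24% of IACS monocytes, against 0.749% to 1.03% of neutrophils, the background class. Median depths were 6840 to 9060 UMIs per monocyte and 3326 to 5108 UMIs per neutrophil. Without thinning, the shares with Cd74 were 22.2% and 26.5%, 22.0% and 12.9%, and 15.3% and 16.3%. The unthinned shares of vehicle and IACS monocytes overlap, and the IACS monocytes are the deeper cells.

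In pDC, interferon-producing cells that carry class II in the steady state, 3 of the class II genes fell as well. Cd74 had 1042 and 1107 CPM in ctrl, 657 and 794 CPM in vehicle, and 288 and 113 CPM in IACS libraries (90 and 94, 39 and 43, and 46 and 45 cells). The groups did not overlap, with ctrl highest and IACS lowest. The log2 change against vehicle was -1.85 (SE 0.22, edgeR adjusted p = 1.3e-05). H2-Aa had 592 and 504 CPM, 362 and 371 CPM, and 136 and 74.3 CPM, a change of -1.79 (SE 0.23). H2-Eb1 had 213 and 166 CPM, 155 and 103 CPM, and 37.1 and 44.6 CPM, a change of -1.62 (SE 0.33, edgeR adjusted p = 0.0081). Both genes were lowest in the IACS libraries. H2-Ab1 had 416 and 332 CPM, 273 and 186 CPM, and 146 and 101 CPM, and its change of -0.87 (SE 0.25, edgeR adjusted p = 0.067) did not pass the test, although it was called at -1.13 without vehicle replicate 2. H2-DMa again overlapped between groups, at 285 and 253 CPM in ctrl, 229 and 275 CPM in vehicle and 269 and 241 CPM in IACS libraries. H2-DMb1 and Ciita had too few UMIs in pDC to be tested. Ciita had 40.9 and 29.0 CPM in ctrl, 18.5 and 24.0 CPM in vehicle, and 15.5 and 5.94 CPM in IACS libraries.

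Of 5 genes tested in pDC, 3 were called, all lower, beside 0.75% of all genes called, and DESeq2 called 1. The call of H2-Eb1 was lost without vehicle replicate 1 and without either IACS library. The share of pDC with Cd74 after thinning was 38.9% and 42.6% in ctrl, 28.2% and 27.9% in vehicle, and 15.2% and 6.67% in IACS libraries. Summed B cell markers were 83.6 to 142 CPM in ctrl, 55.0 to 170 CPM in vehicle and 34.1 to 38.6 CPM in IACS pDC, and their part in the result was not tested. Summed monocyte markers were 1083 to 1167 CPM in ctrl, 1038 to 1395 CPM in vehicle and 638 to 832 CPM in IACS pDC, and the pDC markers themselves summed to 10608 to 11252, 10454 to 12141 and 8328 to 9399 CPM. Summed cDC markers were 511 to 578, 428 to 519 and 374 to 436 CPM. The part of these sums in the result was not tested either.

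The responses of pDC and monocytes were compared with each other in 1 model with a term for class and treatment. The log2 change was higher (less negative) in pDC by 1.75 for H2-Aa (SE 0.38), 2.48 for H2-Ab1 (SE 0.31) and 2.63 for H2-Eb1 (SE 0.46), which made 3 of 7 genes called, beside 0.553% of all genes. The difference for Cd74 was 1.35 (SE 0.31, edgeR adjusted p = 0.0105) and missed the threshold. H2-DMa differed by 0.02 (SE 0.22). Without IACS replicate 1, 1 of the 7 differences was called.

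Cycling monocytes, precursors with cell-cycle genes among their leading markers, had lower levels of Cd74 than most monocyte libraries (18.9 to 112 CPM). H2-Aa fell by 2.01 on the log2 scale (SE 0.50, edgeR adjusted p = 0.0080) and H2-DMb1 fell by 1.38 (SE 0.32, edgeR adjusted p = 0.0046), 2 of 6 genes tested, beside 2.71% of all genes. Cd74 had 21.4 and 112 CPM in ctrl, 69.5 and 34.2 CPM in vehicle, and 18.9 and 21.3 CPM in IACS libraries, and its change of -1.36 (SE 0.40, edgeR adjusted p = 0.030) did not pass. Both calls were lost without either vehicle library and without IACS replicate 2, and DESeq2 called 0 of the 6.

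Between tumor-bearing mice given vehicle and untreated mice without a tumor, none of the 7 genes was called in marrow monocytes or pDC. Tumor implantation and vehicle dosing also differ between these groups and cannot be told apart from the tumor. Between vehicle and ctrl, 0 of 7 genes were called in monocytes by edgeR (2 at an unadjusted p under 0.05, 0 by DESeq2), beside 1.08% of all genes. In pDC, 0 of 5 were called (4 at an unadjusted p under 0.05, 0 by DESeq2), beside 0.0%, with Cd74 at a log2 change of -0.60 (SE 0.18, edgeR adjusted p = 0.46). In cycling monocytes, 0 of 6 were called (2 at an unadjusted p under 0.05, 0 by DESeq2), beside 0.187%. The monocyte result depended on which vehicle library was used. Without vehicle replicate 1, Cd74 was called lower in monocytes (-0.56), and without vehicle replicate 2 it was called higher (0.62).

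B lineage cells showed the opposite movement, alongside a change in which B cells were there. Summed over all B classes (659 and 669 ctrl, 141 and 155 vehicle, 42 and 85 IACS cells), Cd74 had 1204 and 1248 CPM in ctrl, 602 and 662 CPM in vehicle, and 3307 and 3607 CPM in IACS libraries. The groups did not overlap. All 7 genes were called higher with IACS-70654, beside 11.6% of all genes, with log2 changes of 2.49 for Cd74 (SE 0.10), 2.58 for H2-Aa, 2.31 for H2-Ab1, 3.25 for H2-Eb1, 2.09 for H2-DMa, 4.43 for H2-DMb1 and 2.30 for Ciita. H2-DMb1 was sparse, at 1.71 to 72.6 CPM over the 6 libraries with a median of 12.7 CPM. Whether it would pass the filter on low counts without the IACS libraries, where it is high, was not tested, so its call is no support. Between vehicle and ctrl, 4 of 7 genes were called, all lower, beside 0.54% of all genes, with Cd74 at -0.96, H2-Aa at -1.12, H2-Ab1 at -0.82 and H2-Eb1 at -1.54. The makeup of the B lineage differed between these groups as well, and its part in these changes was not tested.

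Mature B cells, the class with the highest Cd74 level, made up different shares of the B lineage. They numbered 106 and 117 in ctrl, 2 and 6 in vehicle and 31 and 67 in IACS libraries, and 3 markers of mature B cells summed to 273 to 289 CPM in ctrl, 104 to 140 CPM in vehicle and 807 to 855 CPM in IACS B lineage cells. Within mature B cells, Cd74 had 6738 and 6302 CPM in ctrl and 5250 and 5279 CPM in IACS libraries, so the IACS level was not above ctrl. Within B cells outside the mature class, Cd74 had 918 and 1025 CPM in ctrl and 1166 and 1179 CPM in vehicle libraries. The lower Cd74 level of the whole B lineage in vehicle than in ctrl libraries was thus not seen within this class. The IACS libraries held 4 and 3 cells of this class. A comparison of IACS with vehicle within 1 B class was therefore not possible. Against the B lineage, the changes of all 7 genes were lower in monocytes (Cd74 by -5.63, SE 0.16, called beside 6.33% of all genes) and in pDC (Cd74 by -4.36, SE 0.21, called beside 3.06%), and in both the B cell types differed between the groups. H2-DMb1 and Ciita had too few UMIs for a test in pDC alone and entered the pDC model through the B lineage, so 5 of the 7 genes had a tested response in pDC.

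Marrow cDC were too few to test. Cd74 had 2552 and 3251 CPM in ctrl (15 and 31 cells), 1777 and 2117 CPM in vehicle (9 and 16 cells), and 1724 and 1364 CPM in IACS libraries (45 and 62 cells). Ctrl cDC were highest, and both IACS libraries lay below both vehicle libraries.

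In c-Kit+ marrow, HSC had more H2-Aa RNA than the other progenitors. H2-Aa had 52.7 and 54.5 CPM in ctrl, 49.8 and 49.4 CPM in vehicle, and 46.3 and 52.0 CPM in IACS HSC (110 and 97, 204 and 96, and 218 and 136 cells). The vehicle and IACS libraries overlapped, both ctrl libraries were slightly higher, and the log2 change with IACS-70654 was -0.08 (SE 0.27). Multipotent progenitors (MPP) had 0 to 5.09 CPM and MP 0.747 to 3.47 CPM of H2-Aa, both below every HSC library. Other progenitor classes came nearer but stayed below HSC. They were lymphoid-primed progenitors (1.93 to 22.7 CPM), cycling MPP (2.47 to 21.1 CPM) and a class with markers of both HSC and MPP (1.96 to 20.0 CPM). T or NK cells of this sort, in the 3 libraries with 20 or more of them, had 49.5 to 67.1 CPM of H2-Aa from 5 or 6 UMIs each, so the HSC level is not above that of every other cell in the sort. H2-Ab1 had 36.7 and 29.7 CPM, 36.4 and 12.99 CPM, and 49.1 and 62.8 CPM in HSC, highest in the IACS libraries, but its change of 0.87 (SE 0.31, edgeR adjusted p = 0.11) did not pass. H2-DMa had 85.5 to 107 CPM in the 6 libraries, lowest in the IACS libraries, and its change of -0.14 (SE 0.21) did not pass. Cd74 was near the limit, at 0 to 18.2 CPM, and Ciita had at most 2 UMIs in any HSC library.

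Of 3 genes tested in HSC, edgeR called 0 with IACS-70654 (1 at an unadjusted p under 0.05, 0 by DESeq2), beside 0.806% of all genes, and 0 between vehicle and ctrl (0 at an unadjusted p under 0.05, 0 by DESeq2), beside 0.424%. Summed cDC markers in HSC were 89.2 to 105 CPM in ctrl, 67.5 to 68.0 CPM in vehicle and 112 to 145 CPM in IACS libraries, with 5 of the 10 at 0 in all libraries, and their part in the H2-Ab1 level was not tested.

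In MP, the c-Kit+ precursors of monocytes, H2-Ab1 was low in every group and higher in the IACS libraries. H2-Ab1 had 1.88 and 1.86 CPM in ctrl, 0.598 and 4.24 CPM in vehicle, and 7.32 and 6.30 CPM in IACS libraries, from 3 to 15 UMIs per library. Both IACS libraries were the highest, and the vehicle libraries differed from each other by more than the ctrl libraries did. The log2 change was 2.05 (SE 0.55, edgeR adjusted p = 0.0077), but H2-Ab1 passed the filter on low counts only through the IACS libraries, where it is high. H2-DMb1 had 20.2 and 18.6 CPM in ctrl, 13.6 and 14.2 CPM in vehicle, and 8.30 and 5.51 CPM in IACS libraries, with no overlap between the groups, but its change of -0.93 (SE 0.30, edgeR adjusted p = 0.035) did not pass. H2-DMa stayed at 155 to 186 CPM in all groups (log2 change -0.06, SE 0.08). Summed macrophage markers in MP were 57.2 to 87.5 CPM in ctrl, 53.5 to 63.4 CPM in vehicle and 78.8 to 86.4 CPM in IACS libraries, and the MP markers summed to 2689 to 2857, 2963 and 2295 to 2381 CPM. Their part in the H2-Ab1 change was not tested. Cd74 had 0 to 7.70 CPM and Ciita at most 2 UMIs in any MP library, so neither was tested.

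In cycling MP, H2-Ab1 was higher in the IACS libraries and H2-DMb1 fell. H2-Ab1 had 3.98 and 1.84 CPM in ctrl, 2.19 and 1.85 CPM in vehicle, and 10.7 and 8.86 CPM in IACS libraries, a log2 change of 2.21 (SE 0.39, edgeR adjusted p = 1.0e-04), and here too it passed the filter only through the IACS libraries. Without the filter its change was 2.00 in MP and 2.18 in cycling MP, and edgeR called both. H2-DMb1 had 17.9 and 12.2 CPM, 14.5 and 15.1 CPM, and 4.53 and 8.12 CPM, a change of -1.36 (SE 0.30, edgeR adjusted p = 0.0016). For both genes the IACS libraries lay outside the range of the other 4. The MP markers summed to 2608 to 2820 CPM in vehicle and 2084 to 2298 CPM in IACS cycling MP, and macrophage markers to 60.9 to 65.4 and 64.2 to 77.4 CPM, and their part was not tested. In MP, 1 of 3 genes was called, beside 3.31% of all genes, and in cycling MP 2 of 3, beside 3.12%, counts that are no support for a change since the filter let H2-Ab1 in where it is high. DESeq2 called none of them, and without IACS replicate 1 each of these 3 calls was lost. Without vehicle replicate 1, H2-Ab1 in MP had a change of 0.69 and was not called, nor was H2-DMb1 in cycling MP. The call of H2-Ab1 in MP was lost without IACS replicate 2 as well. Between vehicle and ctrl, edgeR called 0 of 3 in MP (1 at an unadjusted p under 0.05, 0 by DESeq2), beside 0.559%, and 0 of 3 in cycling MP (0 at an unadjusted p under 0.05, 0 by DESeq2), beside 0.501%.

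**Figure D4:**
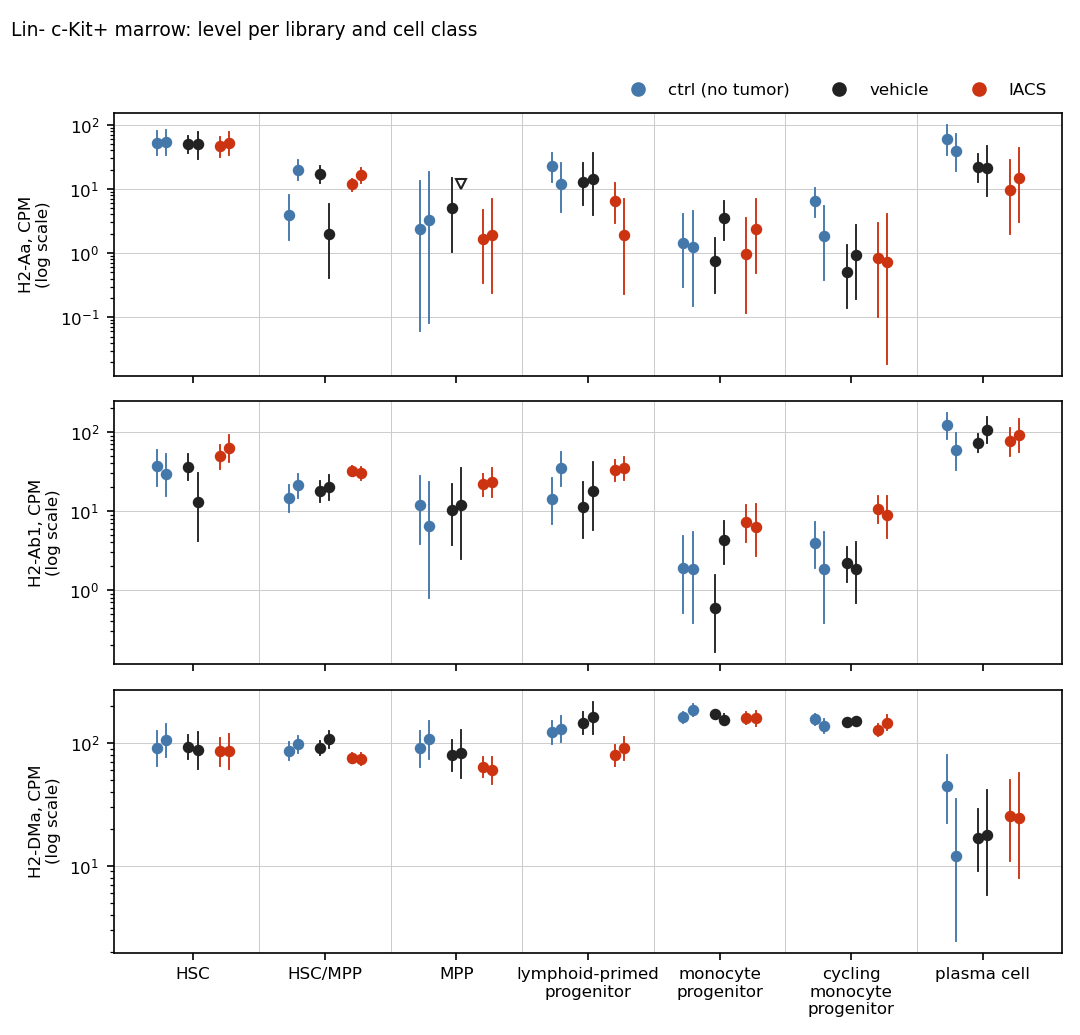
Levels of H2-Aa, H2-Ab1 and H2-DMa (CPM, log axes) in each c-Kit+ marrow library by class; points are libraries with exact 95% Poisson bars, and an open triangle marks a library with 0 UMIs, drawn at the level of 3 UMIs. H2-Aa lies at 46.3 to 54.5 CPM in HSC and at most 3.47 CPM in monocyte progenitors, and H2-Ab1 is highest in the IACS libraries of both monocyte progenitor classes.

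In the other stem and progenitor classes tested, edgeR made 3 calls with IACS-70654 and DESeq2 made 0. Cycling MPP were among the classes not tested. In a class with markers of both HSC and MPP (HSC/MPP), H2-Ab1 had 14.7 and 21.3 CPM in ctrl, 17.9 and 20.2 CPM in vehicle, and 32.4 and 30.2 CPM in IACS libraries, a log2 change of 0.73 (SE 0.18, edgeR adjusted p = 0.0013) whose call was lost without vehicle replicate 1 or IACS replicate 1. Cd74 in HSC/MPP was called lower (-2.14), but 31 of the 43 UMIs of vehicle replicate 1 came from 1 cell, and without that library the change was 0.28. These were 2 of 5 genes tested, beside 4.24% of all genes. In lymphoid-primed progenitors, H2-DMa had 122 and 131 CPM in ctrl, 146 and 163 CPM in vehicle, and 79.3 and 90.7 CPM in IACS libraries, a change of -0.93 (SE 0.18, edgeR adjusted p = 8.5e-05), 1 of 2 genes tested, beside 2.2%. IACS libraries were the lowest there, and the call was lost without vehicle replicate 1 or IACS replicate 1. In MPP, edgeR called 0 of 2 with IACS-70654 (1 at an unadjusted p under 0.05, 0 by DESeq2), beside 1.17%. Vehicle against ctrl gave 0 calls by edgeR in HSC/MPP (0.722% of all genes), MPP (0.389%) and lymphoid-primed progenitors (0.138%), with 0 at an unadjusted p under 0.05 and 0 by DESeq2 in each.

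The response of HSC was not shown to differ from that of MP or MPP. Of the class terms, edgeR called 0 between MP and HSC (beside 0.408% of all genes) and 0 between MPP and HSC (beside 0.145%). Ciita was not tested in either pair, and Cd74, H2-Eb1 and H2-DMb1 were not tested between MPP and HSC. For H2-Ab1 the change was higher in MP than in HSC by 1.11 (SE 0.61, unadjusted p = 0.068), and for Cd74 it was lower by -2.73 (SE 1.36, unadjusted p = 0.045), the 1 member at an unadjusted p under 0.05. Cd74 had too few UMIs for a test in MP or HSC alone, so its term does not show a response of either class. DESeq2 was not run for these terms. Most Cd74 RNA of the c-Kit+ sort lay outside the stem cells. Plasma cells, which made up 0.45% to 1.4% of cells, held 57.9% to 81.5% of the Cd74 UMIs of a library at 1278 to 1889 CPM, with 0 UMIs of Ciita in all 6 libraries. The few cDC of this sort (10 and 9 ctrl, 20 and 13 vehicle cells, 1 IACS cell) had 2698 to 5603 CPM of Cd74 and 1922 to 3272 CPM of H2-Aa in the ctrl and vehicle libraries, and they held 46.9% to 68.2% of the H2-Aa UMIs there. Plasma cells are known to switch Ciita off as they differentiate from B cells.

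In 2208L tumors, macrophages had lower class II RNA with IACS-70654. Cd74 had 11851 CPM with vehicle (630 macrophages), 10363 CPM with anti-PD-1 (450), 5151 CPM with IACS-70654 (2352) and 5557 CPM with the combination (2125). The 2 libraries with IACS-70654 lay close together, as did the 2 without it. The log2 ratio of IACS-70654 to vehicle was -1.20 (95% interval -1.22 to -1.19, exact and covering counting error only). With 1 library per condition there is no test, and these ratios compare libraries.

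The chains of the class II molecules were lower too. H2-Ab1 had 3270 CPM with vehicle, 2803 CPM with anti-PD-1, 810 CPM with IACS-70654 and 892 CPM with the combination, a log2 ratio of -2.01 (-2.05 to -1.98). H2-Aa had 3812, 3157, 1032 and 1166 CPM in the same order (ratio -1.89), and H2-Eb1 had 2962, 2462, 692 and 784 CPM (ratio -2.10). The 2 conditions with IACS-70654 were the lowest for each gene. H2-DMb1 had 415, 359, 107 and 129 CPM, a ratio of -1.96 (-2.05 to -1.86), and Ciita had 34.6, 31.3, 9.83 and 13.3 CPM, a ratio of -1.82 (-2.14 to -1.49). H2-DMa had 557, 546, 338 and 360 CPM, a ratio of -0.72 (-0.79 to -0.65), so it was lower too in tumor macrophages. Of the 7 genes, 6 had a log2 ratio below -1, beside 3.69% of all genes with 20 or more UMIs, and the median ratio was -1.89 for the 7 genes and 0.02 for all genes.

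The lower level was found in each of the 7 macrophage clusters. Cd74 had 3803 to 7366 CPM with IACS-70654 and 7472 to 18584 CPM with vehicle, and in each cluster the IACS-70654 value was the lower. In the interferon-response cluster led by Cxcl10 and Ifit3, Cd74 had 8865 CPM with vehicle (17 cells), 11052 CPM with anti-PD-1, 5774 CPM with IACS-70654 and 6206 CPM with the combination. Vehicle macrophages were most often in the Mmp12-led cluster (154 of 630) and IACS-70654 macrophages in an Apoe-led cluster (562 of 2352), and within these 2 clusters Cd74 fell from 8986 to 4959 CPM and from 18584 to 5492 CPM. Summed macrophage markers were higher with IACS-70654 (67887 CPM with vehicle, 96120 CPM with IACS-70654), summed cDC markers lower (190 and 120 CPM), and B cell markers were 40.4 and 30.2 CPM. Their part in the ratio was not tested. After thinning to 2000 UMIs, 93.2% of vehicle and 86.1% of IACS-70654 macrophages had Cd74, against 36.1% and 22.9% of T or NK cells. Median depths were 6491 and 6348 UMIs per macrophage and 1924 and 1920 UMIs per T or NK cell. Cells with under 2000 UMIs were left out of the thinned shares, so the T or NK shares come from the deeper of these cells only.

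Tumor pDC had a ratio further below 0 for Cd74, on few cells. The vehicle and anti-PD-1 libraries held fewer than the 20 cells asked for elsewhere. Cd74 had 7803 CPM with vehicle (18 cells), 5972 CPM with anti-PD-1 (16), 1377 CPM with IACS-70654 (64) and 928 CPM with the combination (46), a log2 ratio of -2.50 (-2.70 to -2.30). H2-Aa had 2422, 1744, 419 and 348 CPM (ratio -2.53), and H2-Ab1 had 1429, 1629, 298 and 262 CPM (ratio -2.26). In both genes the conditions with IACS-70654 were the lowest. H2-Eb1 had a ratio of -2.67 and H2-DMb1 of -2.42, whereas H2-DMa, at 252 and 196 CPM, had a ratio of -0.36 whose interval (-1.21 to 0.57) included 0. Of 6 genes with enough UMIs, 5 had a ratio below -1, beside 6.73% of all genes. Cd74 was found in 100% of thinned pDC of the vehicle and anti-PD-1 tumors, 68.3% with IACS-70654 and 47.8% with the combination. Summed macrophage markers in tumor pDC were 4574 CPM with vehicle, 12471 CPM with anti-PD-1, 5007 CPM with IACS-70654 and 2016 CPM with the combination, and 2 cDC and 6 B cell markers were at 0 in all 4 libraries.

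In tumor cDC the ratios were not below -1. They are the cells that carry antigen to T cells in the lymph node, and they had the highest Cd74 of the tumor, at 19431 CPM with vehicle (27 cells), 23237 CPM with anti-PD-1 (34), 26600 CPM with IACS-70654 (102) and 30029.7 CPM with the combination (82). The vehicle tumor was the lowest of the 4, with a log2 ratio of 0.45 (0.40 to 0.51). H2-DMa had 833 and 1274 CPM with vehicle and IACS-70654 (ratio 0.61, 0.34 to 0.90), and H2-Ab1 had 6574 and 6747 CPM (ratio 0.04, -0.06 to 0.14). H2-Eb1 had 5960 and 5921 CPM (ratio -0.01, -0.12 to 0.10), and whether cDC and macrophages responded differently cannot be tested with 1 library per condition. Of the 7 genes, 0 had a ratio below -1, beside 5.57% of all genes. Within the cDC class, summed cDC markers were 1711 CPM with vehicle, 1389 CPM with anti-PD-1, 1112 CPM with IACS-70654 and 914 CPM with the combination, and summed macrophage markers 1563, 2692, 2308 and 2386 CPM. The part of these shifts in the ratios was not tested.

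Tumor monocytes and the Ccr2- and Mgl2-led cells, which carry markers of both monocytes and cDC, lay between macrophages and cDC. Cd74 had 11938 CPM with vehicle and 7652 CPM with IACS-70654 in monocytes (134 and 264 cells, ratio -0.64) and 17354 and 12853 CPM in Ccr2- and Mgl2-led cells (86 and 653 cells, ratio -0.43). H2-Eb1 had ratios of -1.15 and -0.95 in these 2 classes, and H2-DMa had ratios of 0.09 and 0.18. A ratio below -1 was found for 3 of 7 genes in monocytes (3.35% of all genes) and for 1 of 7, Ciita at -1.04, in Ccr2- and Mgl2-led cells (4.59%). In cycling macrophages it was found for 4 of 6 genes (3.93%), with H2-Eb1 at -1.93 and Cd74 at -0.69.

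**Figure D5:**
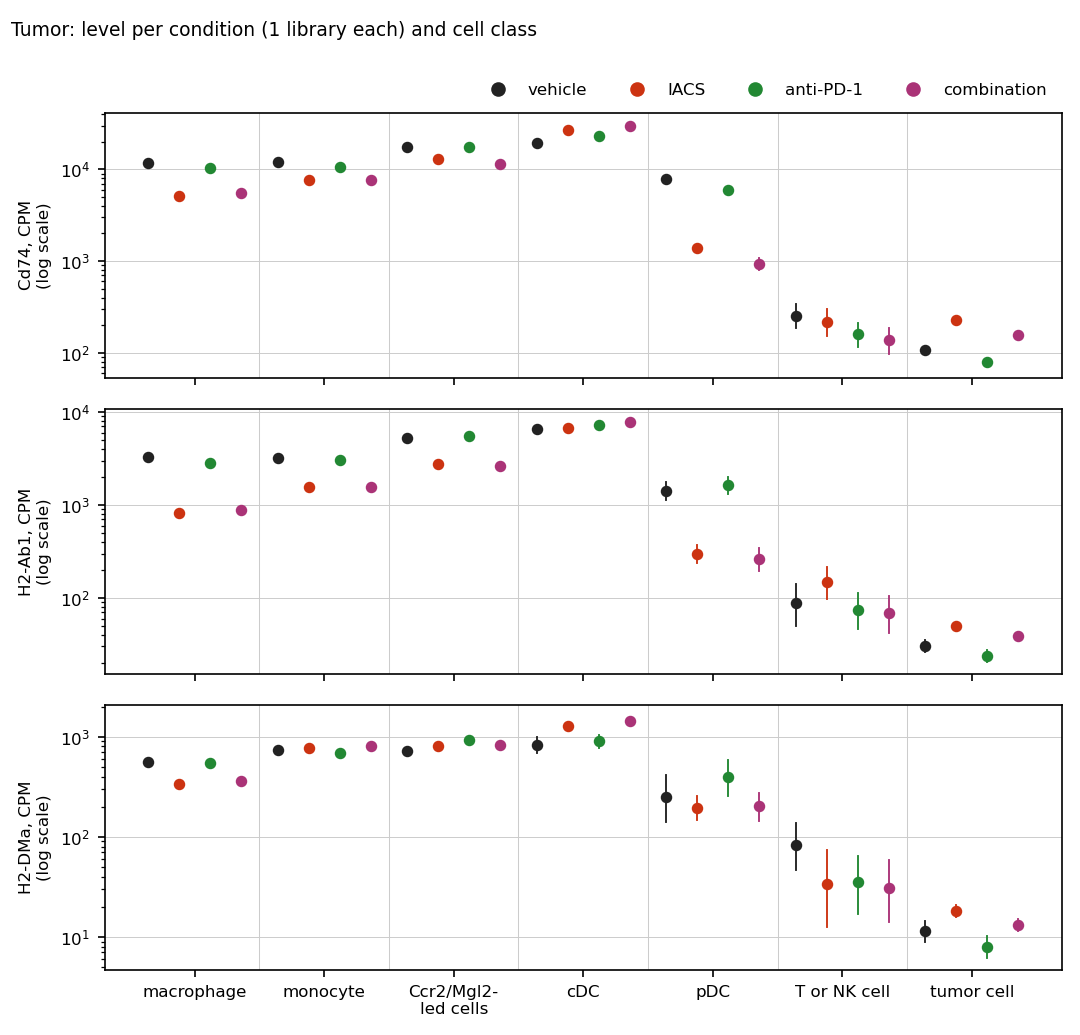
Levels of Cd74, H2-Ab1 and H2-DMa (CPM, log axes) in each of the 4 tumor libraries by class; points are single libraries with exact 95% Poisson bars. The conditions with IACS-70654 are lower for Cd74 in macrophages and pDC and not in cDC, where vehicle is lowest at 19431 CPM.

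Tumor B cells could not be compared, since mature B cells numbered 31 with vehicle, 47 with anti-PD-1, 1 with IACS-70654 and 3 with the combination. Cd74 had 12324 CPM with vehicle and 10449 CPM with anti-PD-1 in them. The background of the tumor was higher than that of marrow. T or NK cells had 137 to 253 CPM and tumor cells 78.5 to 229 CPM of Cd74 (log2 ratio of IACS-70654 to vehicle 1.08, 0.95 to 1.21, in tumor cells), and tumor neutrophils had 581 to 1645 CPM.

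Among 18 tested regulators of class II genes, which include the RFX and NF-Y subunits, CBP and P300 themselves, Irf8 and the interferon-γ receptor, edgeR called 0 in marrow monocytes with IACS-70654, and likewise 0 of 15 in pDC, 0 of 17 in MP and 0 of 14 in HSC. Since 6.1%, 0.75%, 3.31% and 0.806% of all genes were called in these classes, lists of this size would hold few calls in any case. Irf8, a factor of monocyte and dendritic cell fate, was called lower in cycling monocytes (-0.74), HSC/MPP (-0.58), MPP (-1.06) and lymphoid-primed progenitors (-0.77), and the B cell factor Pax5 was called lower in the last of these (-2.40). In monocytes Irf8 had a log2 change of -0.44 (SE 0.10, edgeR adjusted p = 0.0012), under the size threshold. In the B lineage, Jak1 (1.27) and Jak2 (1.15) rose and Nfyb (-1.35) and Irf4 (-0.80) fell, of 17.

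Of the genes that process antigen, the endosomal proteases cathepsin S (Ctss, -0.64) and cathepsin H (Ctsh, -0.61) fell in marrow monocytes and the tetraspanin Cd9 rose (1.63), of 14 tested, with a median change of -0.35. In pDC cathepsin B (Ctsb, -0.63) fell, of 11. In cycling monocytes Ctsh fell (-0.66), of 14. In the B lineage March1 (3.97), Cd83 (2.44), Ctss (1.83) and Ctsh (1.66) rose and Ifi30 fell (-1.19), of 13. In MP, Ctsh fell (-1.03) and Lgmn (1.63), Cd9 (1.59) and Ctss (0.50) rose, of 14. In cycling MP Ctsh fell (-1.12) and Cd9 rose (1.48), of 14. Ctss rose in HSC/MPP (1.37), where Cd9 rose as well (0.56), of 12, and in MPP (3.05), of 9, and Mif fell in lymphoid-primed progenitors (-0.77), of 9. The shares of all genes called in these classes are those given above, from 0.75% in pDC to 11.6% in the B lineage. Of the other class II genes, H2-Oa, which encodes a chain of the H2-DM inhibitor H2-DO, rose in MP (1.98) and cycling MP (1.41), 1 of 2 tested in each. Of the costimulators, 0 of 5 were called in monocytes, and in cycling monocytes Cd86 rose (0.63), 1 of 3. In the B lineage, Icosl (3.34), Cd274 (3.28) and Cd86 (2.53) rose, as did Cd80, which made 4 of 5 costimulators. Both vehicle libraries had 0 UMIs of Cd80, so its call is no support. H2-Oa (3.76) and H2-DMb2 (2.89) rose there as well. The makeup of the B lineage differed between the groups, and its part in the list results there was not tested. Between vehicle and ctrl, H2-Oa (-2.17), March1 (-2.40) and Ctsh (-1.35) fell in the B lineage. Of the receptors that bind class II, Cd4 and Lag3, 0 of 2 were called in pDC.

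The genes most like the mean of the 7 in pattern were found by Pearson's r of log2(CPM + 1) over class and library sums, a description of sums that share libraries and depth. Over 55 sums of CD45+ marrow these were Gm20513 (0.88), Cd180 (0.87), Filip1l (0.85), Ero1lb (0.84) and 1110059E24Rik (0.83), the first of which overlaps H2-Eb1. Over 40 sums of the tumors they were Ifi30 (0.95), which encodes a thiol reductase of the endosome, Cd86 (0.93), Cd72 (0.91), Gm20513 (0.88) and Ms4a4c (0.88). Over 85 sums of c-Kit+ marrow r was lower, with Shisa5 (0.70), Mcl1 (0.70), Cytip (0.67), Ier5 (0.65) and Ltb (0.65). H2-DMa had the lowest r with the mean of the 7 in both marrow sorts, at 0.77 among 7 genes in CD45+ and 0.22 among the 5 genes with enough counts in c-Kit+ marrow.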

How the data were processed

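Cells of the sorts described above were captured with the 10x 3′ assay and CellPlex tags. The authors made the counts with Cell Ranger, whose file headers name 7.1.0 for tumors and 7.2.0 for marrow, and the deposited counts are raw UMI counts per gene and cell on mm10 by the submitters' processing notes. The labels give 7 days of treatment and the text of the study 6 for marrow. Cells with over 200 and under 6000 genes and at most 10% mitochondrial UMIs were kept, scaled, and clustered per sort with Leiden (scanpy 1.11.5, leidenalg 0.10.2, Python 3.11.15) at resolution 1, and named from marker lists. UMIs were summed per class and library, with 20 cells of a class in a library as the minimum for orders of levels, tests and likeness. Tumor ratios needed 10 cells of the class in both libraries. Counts of tumor ratios needed 20 UMIs over both libraries and UMIs in each. Marrow sums were tested by the quasi-likelihood test of edgeR 4.0.16 (R 4.3.3) on TMM-scaled counts of all 6 libraries of a sort after filterByExpr. The authors compared cells with MAST. A call needs a log2 change beyond 0.5 besides an adjusted p below 0.01. Differences between classes were tested in the model with library, class and class by group. CPM intervals are exact Poisson and tumor ratios exact conditional binomial at 95%, covering counting error only. Shares were computed after thinning to 1000, 3000 or 2000 UMIs per cell (CD45+, c-Kit+, tumor), and cells with fewer UMIs were left out of them. The edgeR step was tested on simulated data with 200 changed genes. Possible doublets were kept, and leaving out the 5% of cells per library with the highest Scrublet score was an alternative. DESeq2 1.42.0, other filters, clusterings and left-out libraries were alternatives. The planned class pairs with mature B cells could not be fitted, as the vehicle libraries held 2 and 6 such cells, and the B lineage took their place, chosen after seeing the data. Same-numbered libraries did not deviate together, so the numbers do not pair them.

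All 7 genes were named, with genes of the fixed lists that were called (up to 4 per list by size of change, and 1 more in the B lineage) and the 5 genes per sort most alike among those with a mean of 10 CPM or more. Members and lists were chosen with earlier results of these data known. A called gene of the lists is not reported here.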

Additional observations from a re-analysis of the deposited data

Results flagged for a closer look

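Each of 3 comparisons of the treatment response between cell classes of CD45+ marrow held genes that passed a test of the difference itself. All 7 genes responded differently to IACS-70654 in monocytes and the B lineage, with Cd74 at a difference of -5.63 on the log2 scale, and the term for pDC against the B lineage was called for 7 genes, with Cd74 at -4.36. H2-DMb1 and Ciita entered the pDC model only through the B lineage, as they had too few UMIs for a test in pDC alone, so their 2 terms do not show a response of pDC. In both pairs the B lineage differed in its makeup between the groups, with 2 and 6 mature B cells in the vehicle libraries and 31 and 67 in the IACS libraries, and this part cannot be told apart from a change within B cells. Between pDC and monocytes, 3 genes responded differently, H2-Aa (1.75), H2-Ab1 (2.48) and H2-Eb1 (2.63), with the smaller fall in pDC. The cluster led by Ms4a6c held 505 of 594 IACS and 16 of 267 vehicle monocytes, and its part in these differences was not tested. The count of 3 genes for pDC and monocytes ranged from 1 to 4 when single libraries were left out. The count of 7 for pDC and the B lineage fell to 6 without vehicle replicate 1, vehicle replicate 2 or IACS replicate 2.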

How the results depend on the processing

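Over the tested marrow classes, 18 gene and class pairs of CD45+ marrow were called for IACS-70654 against vehicle, 14 to 19 with single libraries left out, 14 by DESeq2 and 16 with a replicate block, which ended the 2 calls in cycling monocytes. For vehicle against ctrl the count was 4, and 4 to 8 with single libraries left out, 8 of them without ctrl replicate 1, without vehicle replicate 1 or without vehicle replicate 2. In c-Kit+ marrow 6 pairs were called for IACS-70654, 0 by DESeq2, 5 with the replicate block, which ended the call of H2-Ab1 in MP, and 1 to 6 with single libraries left out, 1 of them without IACS replicate 1. For vehicle against ctrl in c-Kit+ marrow the count was 0, 2 without the filter on low counts (Cd74 and H2-Aa in cycling MP, which are not tested with it) and 0 to 2 with single libraries left out, and the cause was not tested. With single libraries left out, Cd74 in HSC/MPP ranged from -2.74 to 0.28, the positive value being that without vehicle replicate 1. The differences between classes called 17, and 15 to 18 with single libraries left out. In tumors, cDC and cycling macrophages formed no class with finer clusters. The other settings left 610 CD45+ and 435 c-Kit+ values with the same call or lack of a call, with 21 and 3 calls gained and 19 and 19 lost. In tumors 142 ratios stayed within the interval of the main setting and 12 moved out of it. A sign was compared only for values called in the main setting, and 1 such c-Kit+ value, that of Cd74 in HSC/MPP, reversed. MPP at the finer clustering were not run. Sparse counts limit Ciita and Cd74 in progenitors, and 2 libraries per group limit every test.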

Other observations

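In CD45+ marrow, a small cluster led by Ace and Adgre4, genes of patrolling monocytes, had 748 to 3662 CPM of Cd74 in the ctrl and vehicle libraries. It held 23 ctrl, 19 vehicle and 4 IACS cells, and the IACS cells had 0 UMIs of Cd74. Over whole libraries, monocytes held 12.4% and 11.6% of the Cd74 UMIs of the ctrl libraries, 37.3% and 18.4% of those of the vehicle libraries and 7.34% and 7.60% of those of the IACS libraries, whereas mature B cells held 35.8% and 31.8% in the ctrl libraries, 1.69% and 5.41% in the vehicle libraries and 33.3% and 40.2% in the IACS libraries. In the tumors, the share of Cd74 UMIs held by macrophages was 67.6% in the vehicle and 49.2% in the IACS-70654 library, and that of Ccr2- and Mgl2-led cells 9.56% and 28.8%. Over all cells of each tumor library, H2-DMa stood at 282 CPM in the vehicle and 304 CPM in the IACS-70654 library, while H2-Eb1 had 1458 and 723 CPM.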
